A study of Homo sapiens with 6 samples.

Results

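Solute carriers, ion channels, ion pumps and ABC transporters are the membrane proteins through which amino acids, metals, vitamins, ions and lipids cross cell and organelle membranes. They were followed here in K1, an established human cell line from a papillary thyroid carcinoma, grown in DMEM with 10% serum. The genes were taken by symbol from the authors' deposited table: all names that begin with the family prefixes SLC or SCN followed by a digit, or with SLCO, KCN, CACN, TRPC, TRPM, TRPV, CLCN, CLIC, AQP, ATP1, ATP2, ATP8, ATP10, ABCA, ABCB, ABCC or ABCG, with SLC26A4 left out. This gave 43 of the 986 genes in the table. The control group held 3 RNA sequencing libraries of K1 cells that went through a control transfection. The other 3 libraries came from K1 cells transfected with a guide RNA directed at the microRNA miR-31 and are called miR-31 KO. The labels do not say whether the KO cells were a clone or a pool, nor whether each library had its own culture. The p-values therefore measure only library-to-library spread, and this may be technical.

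Solute carriers move a substrate along or against its gradient, often coupled to sodium or protons. Channels let ions pass down their gradient when voltage, calcium, temperature or a ligand opens them, and pumps and ABC transporters spend ATP. In the thyroid, such proteins are known for bringing iodide into the follicle and for carrying thyroid hormone. A microRNA such as miR-31 lowers the abundance of messages that carry a match to its seed in the 3′ untranslated region, so a direct target would be expected to be higher where the microRNA is lost.

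The table is a selection. Each of its genes passed an adjusted p of 0.05 and differed at least 1 log2 unit in the authors' comparison, so absence from it does not mean that a gene stayed the same. The 986 listed genes were 5.87% of 16806 genes tested by the authors, a number worked out from their adjusted and raw p-values. Neither MIR31 nor its host transcript MIR31HG was listed, and none of 6 thyroid markers was, so the table checks neither the knockout nor the labelled cell type. Per library, the listed genes together had 545354 to 943360 normalized read counts. The full depth is unknown, and counts are not scaled to gene length, so levels are compared between libraries and not between genes. Control replicate 1 and miR-31 KO replicate 3 stood apart from the other libraries of their groups. KO replicate 3 was the KO library nearest to the controls for 22 of the 43 genes (51.2%, against 50.1% of all listed genes), and control replicate 1 was the control nearest to the KO libraries for 17 (39.5%, against 46.6%). Markers of other cell types moved with the group as well. Summed over the listed markers, the fibroblast genes LUM and PDGFRA had 2.01 to 8.49 normalized counts in controls and 26.7 to 42.5 in KO libraries. The endothelial genes TIE1, KDR and ERG had 1386 to 2232 and 4482 to 6158, although ERG itself was lower in KO. TIE1 alone had means of 996 in controls and 4971 in KO libraries. The leukocyte genes CD3D and ITGAM had 5.62 to 20.03 and 21.9 to 97.7. The groups of ITGAM itself overlapped, with 5.62 to 20.03 in controls and 17.9 to 92.6 in KO libraries. LUM and CD3D were at 0 in every control. These were 2 of 6, 3 of 6 and 2 of 6 markers. Of 5 epithelial markers KRT19 was listed, lower in KO, and of 4 neural markers none was. Their part in the results was not tested. In bulk RNA, fewer cells of a type and less RNA per cell cannot be told apart.

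The sequences that bear on the study's question, which transcripts are targets of miR-31, are the mature microRNA and the matches to its seed in these genes. The mature strand is given from RefSeq (GRCh38.p14, chr9:21512158-21512178, minus strand), with bases 2 to 8, the seed, in capitals.
hsa-miR-31-5p: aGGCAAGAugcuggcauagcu
Matches were searched in the longest 3′ untranslated region that GENCODE release 29 (GRCh38) annotates for each gene. The letters searched were TCTTGCC (7mer-m8), the same followed by A (8mer), and its last 6 letters followed by A (7mer-A1), on the transcript strand and with an 8mer counted once. Each window holds 30 bases of the transcript, 5′ to 3′, with the match in capitals.
Genes higher in miR-31 KO gave these matches.
KCNN3, 8mer, chr1:154704319-154704348, minus strand: ctatgaactgcTCTTGCCAtcttcctaata
KCNN3, 7mer-m8, chr1:154702381-154702410, minus strand: atgaatttgcaTCTTGCCtctgtactgctt
KCNN3, 7mer-A1, chr1:154707454-154707483, minus strand: gctgcccacaaCTTGCCAaaacagatatac
ATP8A1, 8mer, chr4:42412642-42412671, minus strand: atgacctggtaTCTTGCCAgagggctttct
CACNG8, 7mer-m8, chr19:53985197-53985226, plus strand: ggtgattttgaTCTTGCCctgctctcaagg
SLC25A42, 7mer-m8, chr19:19112288-19112317, plus strand: cctcctcctgtTCTTGCCttggacctgcag
Genes lower in miR-31 KO gave these.
SCN2A, 7mer-m8, chr2:165391084-165391113, plus strand: ctgcatgtttaTCTTGCCtatgctgctgta
ATP2B2, 7mer-m8, chr3:10324702-10324731, minus strand: atgcaggcagtTCTTGCCtgggccttctcg
SLC46A1, 7mer-m8, chr17:28395917-28395946, minus strand: gggcacaatgtTCTTGCCgcagcttaaagc
CACNA1C, 7mer-A1, chr12:2696805-2696834, plus strand: gcagtggctccCTTGCCAaggaacctgagg

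KCNQ3, lower in miR-31 KO, had a further 7mer-m8 match that is not shown. In all, 9 of the 43 genes had a match, 4 of 30 higher genes (13.3%) and 5 of 13 lower genes (38.5%). Among all listed genes with such a region annotated, 19.8% of the 582 higher ones (115) and 18.8% of the 373 lower ones (70) had a match. The lower genes here had longer regions, with a median of 2486 bases against 1503 for the higher genes. Among all listed genes the medians were 1071 bases for the lower and 1271 for the higher ones. The part of length in these shares was not tested. KCNN3, with 3 matches in 10521 bases, had the longest of those listed above. A match is a description of the letters and not evidence of a site in use.

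In the deposited comparison 30 of the 43 genes were higher in miR-31 KO and 13 were lower (69.8% and 30.2%), where 60.1% of all listed genes were higher and 39.9% were lower. The 3 KO values lay wholly above or below the 3 control values for 40 of the 43 genes (93.0%), beside 92.6% of all listed genes. An adjusted p under 0.01 was reached by 34 (79.1%, against 77.1%), and 19 differed by 2 log2 units or more (44.2%, against 45.8%). Every control was at 0 for 4 genes (9.3%, against 6.9%). The carriers were mostly higher, 17 of 20, while the channel genes were divided, 9 higher and 9 lower. Potassium channel genes were the largest channel family, with 4 higher and 6 lower. Leaving aside genes at 0 in a whole group, the median log2 fold change was 1.70 for 26 higher genes and -1.81 for 13 lower genes, beside 1.96 and -1.57 for all listed genes. GENCODE annotates 645 protein coding genes with such symbols, of which 6.67% were listed, beside 4.83% of all 19936 protein coding genes. The share was 5.19% of 385 carriers and 10.3% of 97 KCN genes. Annotated genes include those that K1 cells do not express, and these shares were not tested. No gene of the TRPC, TRPM, CLCN, AQP, ATP10, ABCB, ABCC or ABCG prefixes was listed, nor any sodium pump subunit.

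**Figure D1:**
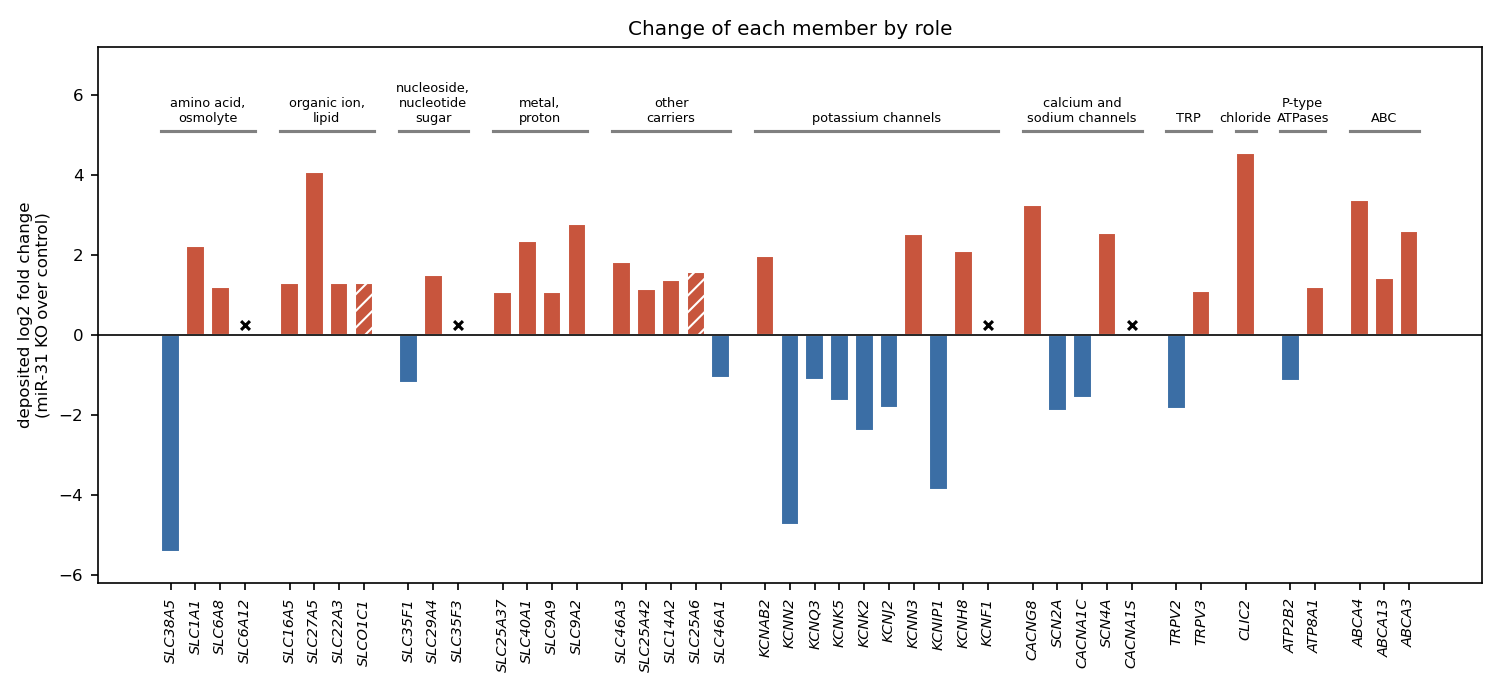
Log2 fold change of miR-31 KO over control in the authors' deposited table (vertical axis) for the 43 genes, ordered by role (labels above the grey lines), with red bars higher and blue bars lower in miR-31 KO. Hatched bars mark SLCO1C1 and SLC25A6, whose groups overlap, and crosses mark the 4 genes listed at 0 in every control library, for which no fold is drawn; carriers stand mostly above the line, while 6 of the 10 potassium channel genes stand below it.

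Among carriers of amino acids and osmolytes, SLC38A5 changed most. It encodes a sodium-coupled carrier of glutamine, histidine, serine and glycine, and lies on chromosome X from 48458537 to 48470256 (GRCh38, minus strand). Control replicates 1, 2 and 3 had 1755, 2037 and 2127 normalized counts of it and KO replicates 1, 2 and 3 had 31.1, 24.1 and 82.5. All controls were far above all KO libraries, and KO replicate 3 was the highest of its group. The mean fell from 1973 ± 194 to 45.9 ± 31.9 (SD, n = 3), which the authors' deposited table gives as a log2 fold change of -5.42 (adjusted p = 7.17e-63). SLC1A1, the neuronal and epithelial carrier of glutamate, aspartate and cysteine (chromosome 9, 4490444 to 4587469, plus strand), moved the other way. It had 76.1, 135 and 92.4 in the controls and 458, 469 and 501 in the KO libraries, a narrow range within the KO group and no overlap. Its mean rose from 101.2 ± 30.6 to 476 ± 22.5 (log2 fold change 2.23, adjusted p = 4.86e-18 in the authors' deposited table). SLC6A8, which imports creatine, had 2227, 1368 and 1428 in the controls and 4097, 3944 and 3578 in the KO libraries (log2 fold change 1.21, adjusted p = 2.09e-12 in the authors' deposited table). Control replicate 1 was the highest control and the groups did not overlap. A copy of SLC6A8 on chromosome 16 is annotated as SLC6A10P, so reads may be split between them. SLC6A12, a betaine and GABA carrier, was listed at 0 in every control and had 0.255, 5.16 and 8.95 in the KO libraries. It was not called in a limma refit of the listed genes (adjusted p = 0.441), in which every call here was tested again. That refit ranked only listed genes in an adjustment over 16806, so its adjusted p-values can be too large.

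Carriers of organic ions and lipids were all higher in the deposited table, 4 of 4. SLC16A5, a member of the monocarboxylate carrier family, had 159, 157 and 142 normalized counts in the controls and 437, 380.4 and 315 in the KO libraries, a rise of 2.47-fold in the means (adjusted p = 4.46e-08 in the authors' deposited table). The controls lay close together and every KO library was above them. SLC22A3, a carrier of organic cations including monoamines, had 32.1, 12.03 and 17.7 in the controls and 47.9, 60.6 and 45.95 in the KO libraries (log2 fold change 1.31, adjusted p = 0.00965 in the authors' deposited table). SLCO1C1, which carries thyroxine, had 23.7, 9.02 and 31.5 in the controls and 30.3, 47.9 and 82.9 in the KO libraries. Its groups overlapped, since control replicate 3 was above KO replicate 1, and the authors' deposited table gives an adjusted p of 0.0486, close to the threshold. SLC27A5, a bile acid and very long chain acyl-CoA synthetase, was near 0 in the controls (0.0193, 1.00 and 1.97) and had 26.8, 15.3 and 15.5 in the KO libraries (adjusted p = 1.72e-06 in the authors' deposited table). The limma refit did not call SLC22A3 (adjusted p = 0.215) or SLCO1C1 (adjusted p = 0.725).

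The nucleoside and nucleotide sugar carrier families gave a mixed picture. SLC35F1, whose substrate is not settled, had 102, 196 and 132 normalized counts in the controls and 52.0, 85.2 and 50.1 in the KO libraries (log2 fold change -1.20, adjusted p = 0.00305 in the authors' deposited table). SLC29A4, the plasma membrane monoamine transporter, had 5.64, 19.03 and 16.7 in the controls and 30.7, 45.9 and 41.9 in the KO libraries (2.86-fold higher mean, adjusted p = 0.00701 in the authors' deposited table). In both genes the groups did not overlap, and control replicate 1 was the lowest control. SLC35F3 was listed at 0 in every control and had 1.65, 15.3 and 1.503 in the KO libraries, so its KO level came mostly from replicate 2. None of these 3 was called in the limma refit, where the adjusted p was 0.181 for SLC35F1, 0.255 for SLC29A4 and 0.318 for SLC35F3.

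Metal and proton carriers were higher in 4 of 4 cases and included an importer and an exporter of iron. SLC25A37, mitoferrin, brings iron into mitochondria (chromosome 8, 23528805 to 23575463, plus strand). It had 7625, 6884 and 6517 normalized counts in the controls and 16059.9, 16325 and 12087 in the KO libraries. The mean rose 2.12-fold from 7008 ± 564 to 14824 ± 2374, and KO replicate 3 was the lowest KO library (adjusted p = 5.59e-17 in the authors' deposited table). After quantile normalization its refitted log2 difference was 0.45 in place of 1.07, and it was not called (limma, adjusted p = 0.336). That scaling was run on selected genes, most of them higher, so the lost call does not test this gene. SLC40A1, ferroportin, exports iron from the cell. It had 5.55, 14.02 and 10.8 in the controls and 60.8, 49.8 and 45.9 in the KO libraries, a rise of 5.15-fold in the means (log2 fold change 2.35, adjusted p = 3.38e-07 in the authors' deposited table). Of 20 other genes of zinc and iron handling, only the metallothioneins MT1E and MT1F were listed, both lower, and MT1E fell from 3192 ± 275 to 205 ± 19.9. SLC9A9, a sodium-proton exchanger of endosomes, had 496, 371 and 338 in the controls and 1016, 983 and 567 in the KO libraries. KO replicate 3 lay nearer to control replicate 1 than to the other KO libraries, yet above all controls (log2 fold change 1.09, adjusted p = 5.72e-05 in the authors' deposited table). SLC9A2, a sodium-proton exchanger of the epithelial surface, had 0.179, 19.03 and 12.8 in the controls and 49.0, 68.6 and 105 in the KO libraries (log2 fold change 2.77, adjusted p = 0.000191 in the authors' deposited table). The refitted log2 difference was 3.38 with all libraries (limma, adjusted p = 0.206), 2.11 without control replicate 1 and 1.83 without both control replicate 1 and KO replicate 3. In the same refit SLC9A9 had an adjusted p of 0.129.

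Of the other carriers 4 were higher and 1 was lower. SLC46A3, a lysosomal carrier, had 41.3, 50.1 and 55.1 normalized counts in the controls and 181, 189 and 149 in the KO libraries (log2 fold change 1.82, adjusted p = 3.44e-10 in the authors' deposited table). Its relative SLC46A1, the proton-coupled folate carrier, moved the other way, with 154, 125 and 94.3 in the controls and 47.1, 53.1 and 77.3 in the KO libraries (log2 fold change -1.07, adjusted p = 0.00435 in the authors' deposited table). Groups did not overlap in either gene. SLC25A42, which carries coenzyme A into mitochondria, had 96.2, 97.2 and 81.5 in the controls and 184, 219.7 and 213 in the KO libraries (log2 fold change 1.16, adjusted p = 1.13e-05 in the authors' deposited table). SLC14A2, a urea carrier known from the kidney, had 50.6, 44.1 and 31.4 in the controls and 107, 139 and 80.3 in the KO libraries (log2 fold change 1.37, adjusted p = 0.000372 in the authors' deposited table). The limma refit gave SLC46A1 an adjusted p of 0.176 and SLC14A2 one of 0.0864.

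SLC25A6, the mitochondrial ADP/ATP exchanger ANT3, had KO libraries on both sides of the controls. It had 791, 735 and 743 normalized counts in the controls, and 3996, 665 and 2144 in KO replicates 1, 2 and 3. KO replicate 2 was below all controls while KO replicate 1 was far above them, so the groups overlapped although the authors' deposited table gives an adjusted p of 0.000879. A limma refit of the listed genes gave a log2 difference of 1.24 ± 0.56 (SE) and an adjusted p of 0.996. The gene lies in the pseudoautosomal region that the X and Y chromosomes share (1386152 to 1392724 of chromosome X), it is annotated on both, and 6 pseudogenes are annotated, so its reads may be split between copies. Of 18 protein coding genes annotated in such regions 3 were listed, SLC25A6, PLCXD1 and P2RY8, all higher. PLCXD1, a gene of the phospholipase C type, had 794, 1293 and 313 in KO replicates 1, 2 and 3, and P2RY8, a receptor gene, had 30.4, 31.6 and 2.82. KO replicate 2 was thus the highest for both of these and the lowest for SLC25A6.

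**Figure D2:**
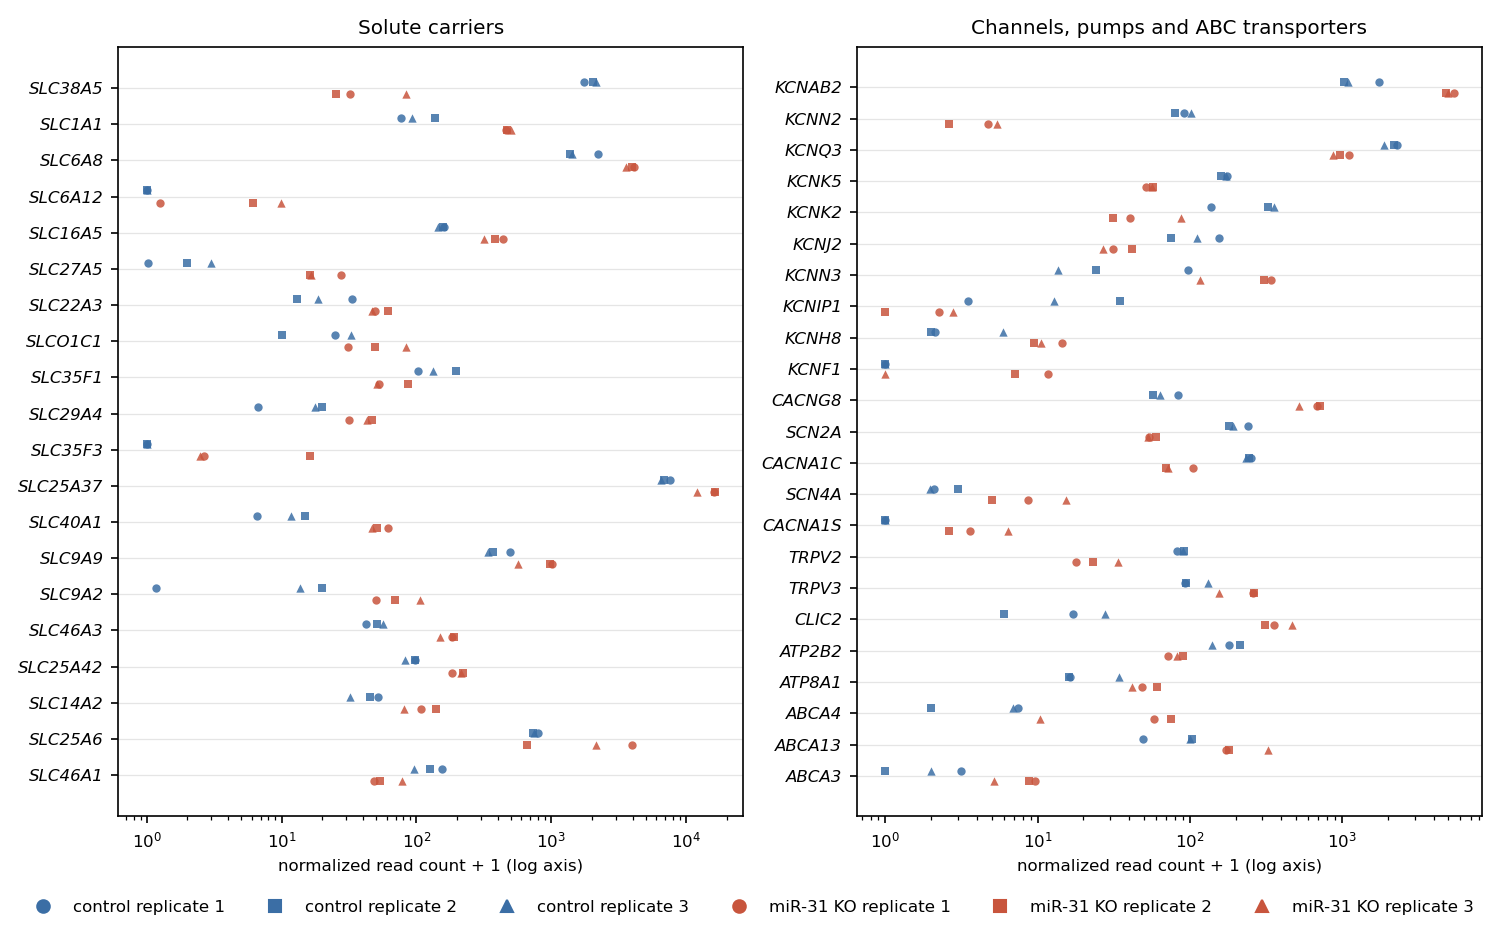
Normalized read count + 1 (horizontal log axis) of each gene in every library, with carriers at left and channels, pumps and ABC transporters at right, controls in blue and miR-31 KO in red, and replicates 1, 2 and 3 as circles, squares and triangles. The red and blue points of 40 of the 43 genes do not overlap, and the 3 KO points of SLC25A6 stretch from 665 to 3996 around controls at 735 to 791.

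The potassium channel genes set the resting potential and the return to it after excitation, and 10 were listed. KCNAB2, the cytoplasmic beta subunit of voltage-gated channels, had the lowest adjusted p of the 4 higher ones. It had 1754, 1030.0 and 1090.0 normalized counts in the controls and 5413, 4827 and 4954 in the KO libraries (chromosome 1, 5991466 to 6101193, plus strand). All KO libraries were above all controls, and the mean rose 3.92-fold from 1291 ± 402 to 5065 ± 308 (adjusted p = 7.26e-30 in the authors' deposited table). An exon of NPHP4, which was not listed, overlaps it on the opposite strand. KCNN2 and KCNN3, both small-conductance channels opened by intracellular calcium, moved in opposite directions. KCNN2 (chromosome 5, 114055545 to 114496500, plus strand) had 90.8, 79.2 and 100.3 in the controls and 3.72, 1.61 and 4.42 in the KO libraries. This was a near loss in every KO library, with means of 90.1 ± 10.6 and 3.25 ± 1.46 (log2 fold change -4.75, adjusted p = 1.22e-23 in the authors' deposited table). KCNN3, the gene with 3 seed matches listed above, had 95.9, 23.1 and 12.7 in the controls and 342, 308 and 116 in the KO libraries. Control replicate 1 and KO replicate 3 nearly met, and the refitted log2 difference was 2.87 with all libraries (limma, adjusted p = 0.118) and 4.17 without those 2 (adjusted p = 0.00201). Those 2 libraries were left out after the data were seen. They were the nearest to the other group for KCNN3, so the larger difference is built in and does not test the gene.

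The 3 listed channels of background or inward potassium current, KCNK5, KCNK2 and KCNJ2, were lower, and so was KCNQ3. KCNK5, an acid-sensitive background channel of the tandem-pore family, had 174, 158 and 173 normalized counts in the controls and 50.4, 56.0 and 55.8 in the KO libraries. Both groups were tight, with means of 168 ± 8.80 and 54.1 ± 3.19 (log2 fold change -1.64, adjusted p = 1.76e-09 in the authors' deposited table). KCNK2, a background channel of the same family opened by stretch and warmth, had 137, 324 and 355 in the controls and 39.7, 30.2 and 86.7 in the KO libraries. Control replicate 1 and KO replicate 3 lay between the others, without overlap (log2 fold change -2.38, adjusted p = 9.87e-07 in the authors' deposited table). KCNJ2, the inward rectifier that fixes the resting potential of muscle, had 155, 74.2 and 111 in the controls and 30.3, 40.8 and 25.8 in the KO libraries (log2 fold change -1.81, adjusted p = 1.30e-05 in the authors' deposited table). KCNQ3, a subunit of the slow M-current channel of neurons, had 2287, 2208 and 1874 in the controls and 1111, 964 and 868 in the KO libraries, a 2.16-fold lower mean without overlap (adjusted p = 4.92e-15 in the authors' deposited table).

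The remaining potassium channel genes had low values. KCNIP1, a calcium-binding partner of A-type channels, had 2.47, 34.1 and 11.8 normalized counts in the controls and 1.25, 0 and 1.79 in the KO libraries. Its control group ranged widely, and control replicate 1 was barely above KO replicate 3 (adjusted p = 0.00445 in the authors' deposited table). KCNH8, a voltage-gated channel, had 2.36 ± 2.24 in the controls and 10.5 ± 2.63 in the KO libraries. KCNF1, a subunit that opens no channel by itself, was listed at 0 in every control and in KO replicate 3, with 10.6 and 6.07 in KO replicates 1 and 2. The limma refit called none of these 3, with adjusted p-values of 0.287 for KCNIP1, 0.172 for KCNH8 and 0.688 for KCNF1.

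Genes of calcium and sodium channels were 3 higher and 2 lower. CACNG8 encodes a transmembrane protein of the calcium channel gamma family, known as an auxiliary subunit of AMPA-type glutamate receptors (chromosome 19, 53963040 to 53990215, plus strand). It had 83.0, 56.1 and 62.9 normalized counts in the controls and 689, 719.9 and 525 in the KO libraries. Every KO library was well above every control, and the mean rose 9.57-fold from 67.3 ± 13.96 to 644 ± 105 (log2 fold change 3.26, adjusted p = 1.23e-38 in the authors' deposited table). The pore-forming subunits that were above 20 in a group were lower. CACNA1C, the L-type calcium channel of heart and smooth muscle, had 253, 242 and 233 in the controls and 104, 69.4 and 71.1 in the KO libraries (log2 fold change -1.58, adjusted p = 1.02e-08 in the authors' deposited table). SCN2A, a voltage-gated sodium channel of neurons, had 239, 181 and 192 in the controls and 52.8, 58.7 and 52.2 in the KO libraries (log2 fold change -1.90, adjusted p = 5.62e-12 in the authors' deposited table). Neither gene's groups overlapped, and both carry a seed match. The skeletal muscle channel genes SCN4A and CACNA1S were barely detected. SCN4A had 1.36 ± 0.560 in the controls and 8.65 ± 5.19 in the KO libraries, and CACNA1S was listed at 0 in every control with 2.59, 1.61 and 5.36 in the KO libraries. Neither was called in the limma refit (adjusted p = 0.161 and 0.0973).

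The vanilloid TRP channels, which pass calcium in response to heat or mechanical stimuli, were divided. TRPV2 had 81.2, 91.2 and 89.4 normalized counts in the controls and 16.9, 22.3 and 32.6 in the KO libraries (log2 fold change -1.86, adjusted p = 4.36e-07 in the authors' deposited table). TRPV3, a warmth-sensitive channel of keratinocytes, had 92.1, 94.2 and 131 in the controls and 259.7, 264 and 155 in the KO libraries (log2 fold change 1.10, adjusted p = 0.00106 in the authors' deposited table). In both, KO replicate 3 was the KO library nearest to the controls, and TRPV3 was not called in the limma refit (adjusted p = 0.138). CLIC2, an intracellular chloride channel protein that also modulates ryanodine receptors (chromosome X, 155276211 to 155334657, minus strand), had the largest rise among genes detected in both groups. It had 16.2, 5.02 and 26.6 in the controls and 356, 310.0 and 468 in the KO libraries. Its mean rose from 15.95 ± 10.8 to 378 ± 81.1 (log2 fold change 4.56, adjusted p = 4.40e-30 in the authors' deposited table).

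Among the P-type ATPases, ATP2B2, a plasma membrane pump that exports calcium, had 181, 214 and 139 normalized counts in the controls and 70.7, 88.9 and 81.0 in the KO libraries (log2 fold change -1.15, adjusted p = 0.000187 in the authors' deposited table). ATP8A1, a flippase that moves aminophospholipids to the cytoplasmic leaflet, had 15.3, 15.03 and 33.5 in the controls and 47.7, 59.8 and 40.6 in the KO libraries (log2 fold change 1.21, adjusted p = 0.0209 in the authors' deposited table). Neither pair of groups overlapped. The ABC transporters listed were 3 lipid transporters or presumed ones of the ABCA family, all higher. ABCA13, whose substrate is less well known, had 48.1, 103 and 99.3 in the controls and 173, 179 and 327 in the KO libraries (log2 fold change 1.44, adjusted p = 0.000516 in the authors' deposited table). ABCA4, the retinoid transporter of photoreceptors, had 6.42, 1.00 and 5.91 in the controls and 56.9, 74.4 and 9.37 in the KO libraries, so KO replicate 3 was close to the controls and the other KO libraries were not. ABCA3, which loads surfactant lipids in lung cells, had 1.04 ± 1.06 in the controls and 6.86 ± 2.34 in the KO libraries. The limma refit called none of these pumps and transporters, with adjusted p-values of 0.0633 for ATP2B2, 0.285 for ATP8A1, 0.138 for ABCA13, 0.199 for ABCA4 and 0.150 for ABCA3.

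**Figure D3:**
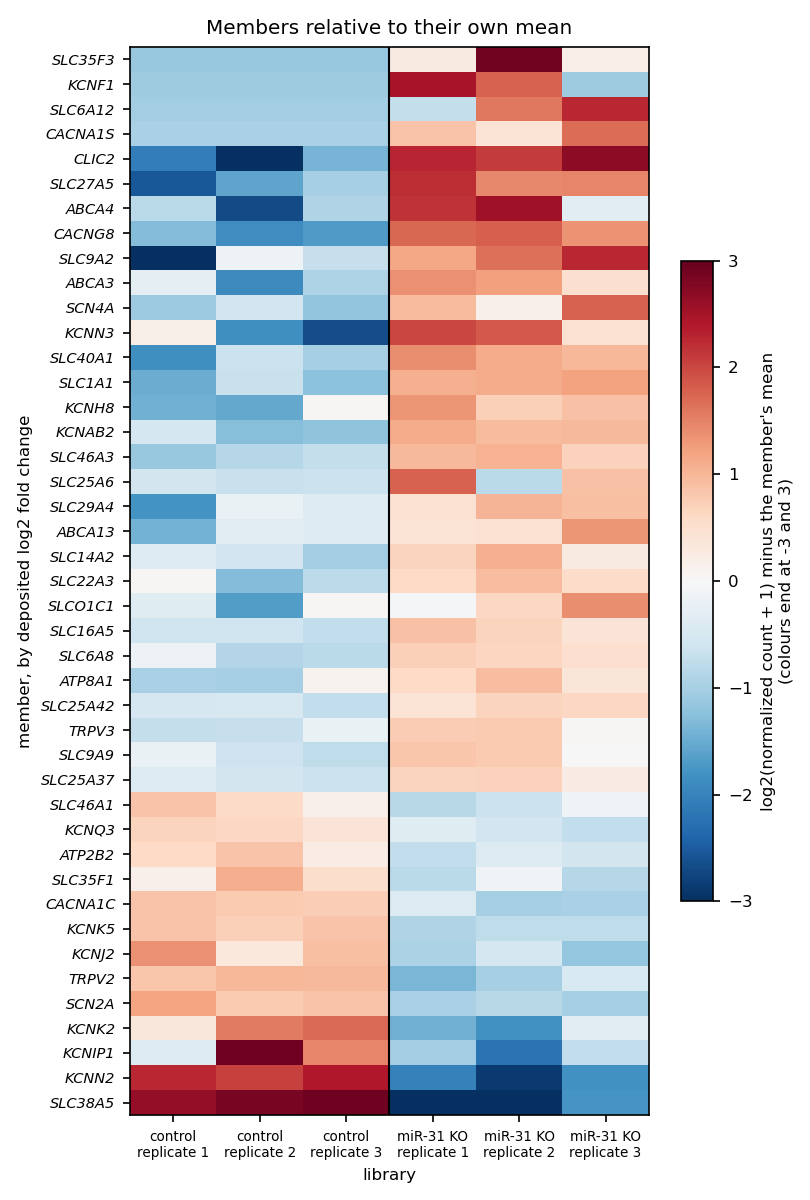
Log2(normalized count + 1) of each gene (rows, ordered by the deposited log2 fold change) in each of the 6 libraries (columns), as the difference from the gene's own mean over all 6, with red above and blue below it. The KO columns are red for the 30 higher genes and blue for the 13 lower genes apart from a few cells, among them SLC25A6 in KO replicate 2, KCNF1 and ABCA4 in KO replicate 3 and SLC6A12 in KO replicate 1, and KO replicate 3 is paler than the other KO columns in KCNN3 and KCNK2.

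A limma refit of the listed genes, which estimates the spread from these selected genes alone, called 20 of the 43 at an adjusted p under 0.05, beside 45.3% of all listed genes. Of these 11 were higher and 9 were lower. After quantile normalization, which shifted the median log2 fold change of all listed genes by -0.44, the refit called 17, 6 higher and 11 lower, beside 46.6% of all listed genes, and no gene of the 43 changed sign. Quantile normalization gives every library the same distribution of values. Here it was run on selected genes that were mostly higher, so a downward shift can be built in and calls lost after it do not test the genes. All listed genes shifted likewise, with 38.6% of their calls higher after that scaling against 62.2% before it. The 5 genes called higher before it and not after were SLC16A5, SLC27A5, SLC40A1, SLC25A42 and SLC25A37, with adjusted p-values (limma) of 0.0504, 0.0845, 0.0553, 0.137 and 0.336. Without the libraries that stood apart, control replicates 2 and 3 against KO replicates 1 and 2, it called 22, 14 higher and 8 lower, or 51.2% of the 43 and 51.2% of all listed genes. SLC38A5, SLC1A1, KCNN2, CACNG8 and SCN2A were called in all 11 refits that tested every gene. The 14 called in none were ABCA3, ABCA13, ATP8A1, KCNH8, SCN4A, SLC9A2, SLC14A2, SLC22A3, SLC25A6, SLC29A4, SLC35F1, SLC35F3, SLC46A1 and SLCO1C1. Every refit used libraries on which the listed genes had already been selected. Calls in the refits can thus be partly built in and are not independent support for a gene.

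**Figure D4:**
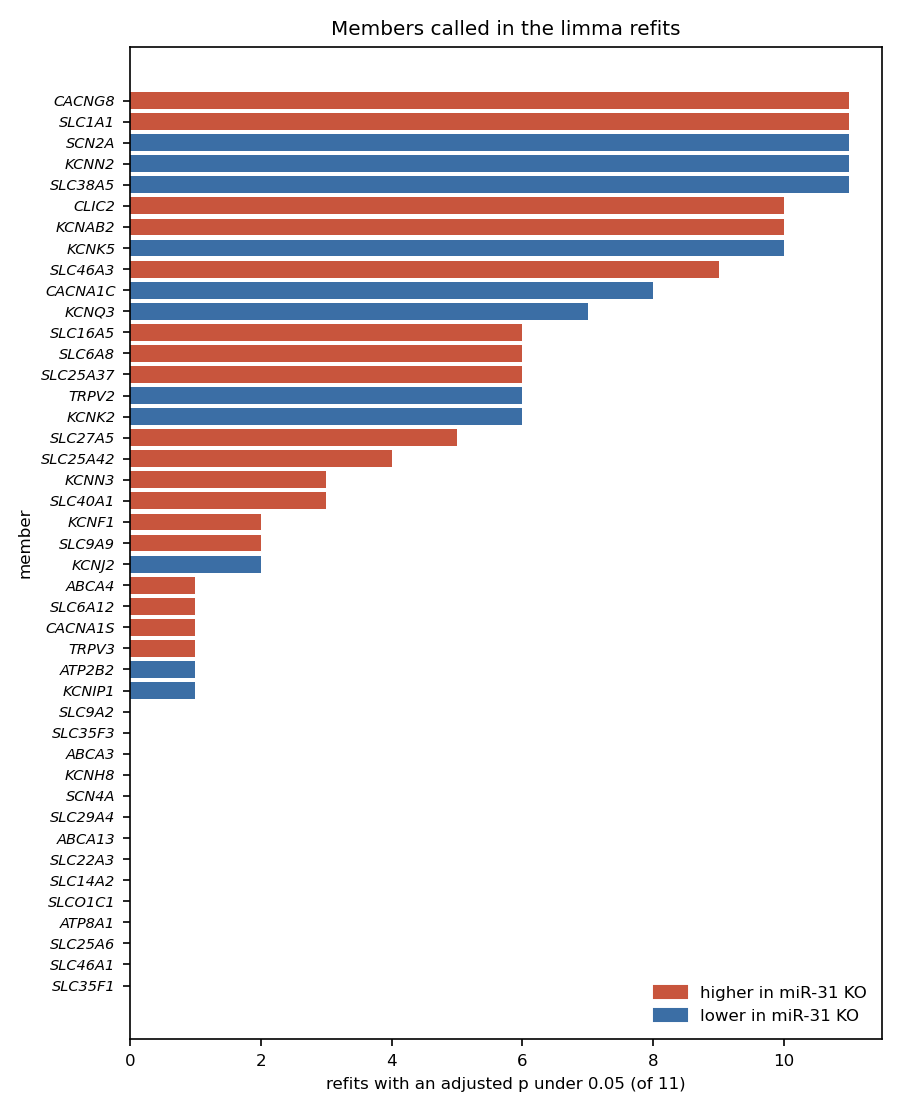
Number of limma refits, of 11, in which each of the 43 genes (vertical axis) had an adjusted p under 0.05, in red for genes higher and blue for genes lower in miR-31 KO. The bars reach 11 for CACNG8, SLC1A1, SCN2A, KCNN2 and SLC38A5 and are absent for 14 genes.

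Position was examined because neighbouring genes can change together. The 43 genes lay on 16 chromosomes, with at most 6 on any of them. Another listed gene lay within 500 kb of 14 of them, giving 22 neighbour pairs, of which 16 (72.7%) had the same direction. Among all 465 such pairs of listed genes the share was 69.9%. CLIC2 and its neighbour RAB39B, a small GTPase gene 11622 bp away, were both higher. So were SLC1A1 and SPATA6L, whose annotated spans overlap, although no exon of SLC1A1 overlaps an exon of another annotated gene. Exons of 6 of the 43 genes overlap another protein coding gene (KCNAB2, SLC6A8, SLC27A5, TRPV3, SLC46A1 and SLC29A4), none of which was itself listed, and whether the counting used strand is not given in the sources used here.

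Channels and carriers outside these prefixes, and proteins that work with them, were read from further lists, whose counts were not tested. They stand beside the 4.83% of annotated protein coding genes that were listed and the 60.1% of listed genes that were higher. The lists were chosen with earlier results of these data known, so a share above 4.83% in them cannot be read as an excess. Of 125 other channel and transporter genes 13 were listed (10.4%), 8 higher and 5 lower. CHRNA7, a nicotinic acetylcholine receptor subunit of which a partial copy exists in the genome, fell from 246 ± 29.1 to 17.5 ± 9.72 normalized counts (adjusted p = 1.98e-26 in the authors' deposited table). GABRA3, a GABA receptor subunit, fell from 153 ± 12.5 to 20.1 ± 12.4, whereas GABRA2, another such subunit, rose from 0.663 ± 1.14 to 24.8 ± 9.18. The sodium leak channel gene NALCN fell from 1291 ± 293 to 628 ± 167. PANX2, a pannexin, rose from 114 ± 18.3 to 445 ± 44.6, and TPCN1, a cation channel of endosomes, rose from 1722 ± 569 to 5371 ± 2037. Of 56 symbols of regulators and partners of channels and pumps 4 were listed, FXYD6 and NKAIN1 higher, NKAIN1 with KO replicate 2 at 0, and SGK2 and DPP6 lower, each below 15 in all libraries. Of 33 genes of the amino acid response and glutathione 4 were listed, TRIB3, SRXN1 and GGT1 higher and NUPR1 lower. GGT1, which breaks down extracellular glutathione and has close relatives in the genome, rose from 50.7 ± 19.5 to 292 ± 67.2. Of 22 genes of thyroid ion and hormone handling 3 were listed, all lower: the anion exchanger gene SLC26A4 with 71.0 ± 15.5 and 31.1 ± 5.65, DUOX2 and DUOXA1.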

How the data were processed

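RNA sequencing gave 6 libraries. Their titles set the groups, 3 in each, whereas the design text names duplicates. Total RNA was isolated with Trizol, per the labels' protocols. RSEM, HISAT, Bowtie2, hg38 and hg19 appear, per the submitters' processing notes, with no role; the sources used here give no version, normalization or test. The signal values deposited by the authors are normalized read counts per gene. The log2 fold changes (miR-31 KO over control), p-values and adjusted p-values were also deposited by the authors and are the main result, since the table was already selected on them.

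The genes and lists were chosen with earlier results of these data known. Genes whose higher group averaged 20 or more were described library by library, and genes at 0 in a group by their values; of the rest, SLC27A5 and KCNIP1 were also given by library, a choice made after their values were seen, and KCNH8, SCN4A and ABCA3 by group means. Refits used limma 3.58.1 in R 4.3.3 (log2 of the value + 1, trended eBayes, Benjamini-Hochberg adjustment over 16806 genes). Their code was tried on simulated data that held all 16806 genes, few of them changed. That trial does not cover a fit of selected genes alone. No pair of libraries held the same values, and counting noise could not be computed. Other computations used Python 3.11.15, pandas 2.3.3 and numpy 2.4.6. Symbols were matched to GENCODE 29 for all 43 genes; the table has no coordinates. Depth is unknown, so no counting interval is given.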

Additional observations from a re-analysis of the deposited data

How the results depend on the processing

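The deposited table called 43 genes (30 higher, 13 lower), and 34 (21 and 13) below 0.01. A minimum of 2 log2 units left 19 (15 and 4), and 2 of the 9 genes with a seed match. These were 2 of 15 higher genes (13.3%) and 0 of 4 lower genes, beside 20.6% and 23.5% of all listed genes. With 8mer and 7mer-m8 matches alone, 8 genes were left. They were 4 of 30 higher genes (13.3%) and 4 of 13 lower genes (30.8%), beside 13.9% and 12.1% of all listed genes. The limma refit called 20 (11 and 9), with a pseudocount of 0.1 it called 18 (11 and 7), with quantile normalization 17 (6 and 11) and with means of 50 or more, a filter that 26 genes passed, 15 (9 and 6). Leaving out 1 library gave 8 to 19 calls (3 to 12 higher, 3 to 8 lower): 9 without control replicate 2 (5 higher) or 3, 8 without KO replicate 1 (5 lower) or 2, but 19 and 18 without control replicate 1 or KO replicate 3. All listed genes went the same way, with 182, 189, 156 and 185 calls in the former 4 refits and 420 and 396 in the latter. The set of 4 libraries, chosen after the data were seen, called 22 (14 and 8). With the replicate block the refit called 18 (10 and 8). Of all listed genes it called 45.3%, and 39.5% with the pseudocount of 0.1, 46.6% with quantile normalization, 50.1% with the filter and 42.3% with the replicate block. Same-numbered libraries did not deviate together across genes (correlations of 0.20, -0.13 and 0.15) and are treated as unpaired. The refits ranked only listed genes in an adjustment over 16806, whereas the last listed gene had rank 3483 in the authors' test. Refit adjusted p-values can thus be larger than a fit of all genes would give. How far this lowered the counts, and any other cause, was not tested. Among 585 single-gene values, 234 stayed called, 351 did not and 0 turned sign. Settings that only changed a threshold repeated the deposited value, so its sign could not turn. The refits used the same libraries and genes selected for a difference in them, so the 0 is little of a test. A test without a filter needs a table of all genes and was not run. Values under 20, as in 9 of the genes, rest on few reads, and the depth behind them is unknown.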
